A study of Mus musculus with 13 samples.

Results

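The major histocompatibility complex (MHC) class I genes described here are the heavy chains H2-K1, H2-D1, H2-T22, H2-T23, H2-T24, H2-Q4, H2-Q6, H2-Q7 and H2-M3 and the light chain B2m. They were taken by gene symbol, 10 of the 21084 genes in the count table, and all 10 were among the 15835 genes tested. Bulk RNA sequencing was done on gamma delta intraepithelial lymphocytes (IELs), T cells that live between the epithelial cells of the gut, sorted from small intestines of WT (wild-type) mice. Every mouse received 200 µg of a hamster antibody intraperitoneally, either UC7-13D5, directed at their T cell receptor (TCR), or, as its control, Armenian hamster IgG. The protocols place the antibody at 48 and 24 hours before the cells were isolated, whereas the design text gives those times as alternatives. All mice then received 1 µg of interferon alpha (IFNa), a type I interferon, or the vehicle PBS (phosphate buffered saline), given into a vein 5 hours before isolation. The 13 libraries comprised 4 of IgG-IFNa and 3 each of IgG-PBS, UC7-PBS and UC7-IFNa. The titles call them biological replicates; strain, age and the number of mice behind a library are not given in the sources used here, so p-values measure the spread between these libraries.

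Class I molecules pair a heavy chain with B2m and show peptides at the cell surface. The classical chains H2-K1 and H2-D1 are highly variable between strains, are found on nearly all cells and present peptides to CD8 T cells. The nonclassical chains vary less and have more specialised partners: H2-T23 (Qa-1) shows leader peptides of other class I chains to CD94/NKG2 receptors, H2-T22 is bound by the receptors of some gamma delta T cells, H2-Q6 and H2-Q7 encode Qa-2, and H2-M3 presents N-formylated peptides. Type I interferon is a textbook inducer of class I genes, and NLRC5 is the transactivator of class I promoters. All 9 heavy chain genes lie on mm39 chromosome 17, from H2-K1 (minus strand, 34214991 to 34219322) through H2-D1 (plus strand, 35481706 to 35486476) and H2-T23 (ENSMUSG00000067212, minus strand, 36340665 to 36343748) to H2-M3 (plus strand, 37581111 to 37585376). H2-T24 (ENSMUSG00000053835, minus strand, 36316587 to 36331453) lies beside H2-T23, and B2m lies on chromosome 2 (plus strand, 121978167 to 121983565).

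Promoter sequences are shown because the interferon-response letters in front of these genes differ between the chains. RefSeq (GRCm38.p6) gave a promoter window for 9 of the 10 genes and none for H2-T24. The 250 bases before each start site were searched on both strands. Each line gives 200 of those bases in the direction of the gene, and capitals mark matches to 3 motifs: an interferon regulatory factor (IRF) element, AANNGAAA, its tandem form, GAAANNGAAA, which contains the former, and an NF-kB element, GGGNNTTCCC. The classical chains and H2-Q7 came first.
H2-K1, chr17:34000348-34000547, minus strand: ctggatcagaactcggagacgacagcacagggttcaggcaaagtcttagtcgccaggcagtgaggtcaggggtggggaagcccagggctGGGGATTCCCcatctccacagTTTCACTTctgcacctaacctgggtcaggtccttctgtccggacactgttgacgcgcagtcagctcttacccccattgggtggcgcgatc
H2-D1, chr17:35262894-35263093, plus strand: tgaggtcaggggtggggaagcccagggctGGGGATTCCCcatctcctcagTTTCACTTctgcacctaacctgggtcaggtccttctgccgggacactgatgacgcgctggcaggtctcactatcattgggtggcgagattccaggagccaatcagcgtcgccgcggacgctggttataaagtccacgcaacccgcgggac
H2-Q7, chr17:35438955-35439154, plus strand: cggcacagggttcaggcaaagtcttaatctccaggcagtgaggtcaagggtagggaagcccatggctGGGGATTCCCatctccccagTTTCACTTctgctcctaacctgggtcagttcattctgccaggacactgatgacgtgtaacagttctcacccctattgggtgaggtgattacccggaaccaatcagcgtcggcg
The chains without an NF-kB match, and B2m, follow.
H2-M3, chr17:37270034-37270233, plus strand: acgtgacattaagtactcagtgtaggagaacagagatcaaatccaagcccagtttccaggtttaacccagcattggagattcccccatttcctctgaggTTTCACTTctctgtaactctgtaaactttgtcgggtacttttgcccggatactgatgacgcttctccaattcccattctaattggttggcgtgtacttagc
H2-T22, chr17:36042743-36042942, minus strand: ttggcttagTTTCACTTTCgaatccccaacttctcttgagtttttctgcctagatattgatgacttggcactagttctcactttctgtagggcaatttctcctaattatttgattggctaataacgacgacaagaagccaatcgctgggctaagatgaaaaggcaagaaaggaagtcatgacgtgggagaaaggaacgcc
H2-T23, chr17:36032702-36032901, minus strand: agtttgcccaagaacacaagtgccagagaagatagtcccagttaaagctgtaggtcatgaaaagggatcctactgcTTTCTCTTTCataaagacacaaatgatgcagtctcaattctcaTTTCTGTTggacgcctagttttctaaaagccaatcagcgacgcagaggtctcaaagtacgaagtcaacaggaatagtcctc
B2m, chr2:122147487-122147686, plus strand: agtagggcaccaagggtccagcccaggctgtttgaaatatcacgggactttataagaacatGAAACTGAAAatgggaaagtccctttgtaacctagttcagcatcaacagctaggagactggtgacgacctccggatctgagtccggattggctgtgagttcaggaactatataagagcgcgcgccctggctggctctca

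The IRF element was found in 9 of 9 windows, against 21.56% of all 27025 RefSeq promoter windows of this length. The letters TTTCACTT, its match on the opposite strand, recur in H2-K1, H2-D1, H2-Q4, H2-Q6, H2-Q7, H2-M3 and H2-T22. H2-T23 instead had 2 separate matches, TTTCTCTT at 124 to 117 and TTTCTGTT at 81 to 74 bases before its start. The tandem form was found in B2m, H2-T22 and H2-T23 and in 3.05% of all windows. The NF-kB element was found in H2-K1, H2-D1, H2-Q4, H2-Q6 and H2-Q7 and in 1.44% of all windows. Of 2 further motifs, TGACG, the core of a cyclic AMP response element, was found in 7 of 9 windows and in 17.8% of all, and the CCAAT box, CCAAT, in 9 of 9 and in 34.53% of all. A match describes the letters only.

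**Figure D1:**
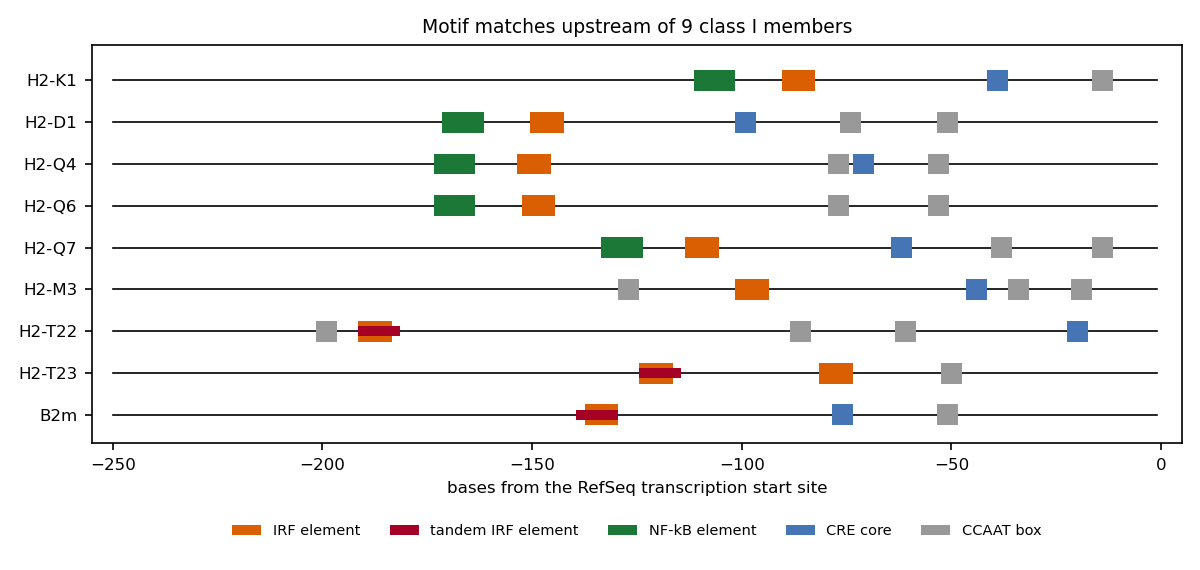
Positions of motif matches in the 250 bases before the RefSeq start site of 9 class I genes (x axis, bases from the start site; each row is a gene; each box is a match on either strand). The tandem IRF element, which contains an IRF element, is drawn as a thinner box over it in H2-T22, H2-T23 and B2m. The NF-kB element precedes the IRF element in H2-K1, H2-D1, H2-Q4, H2-Q6 and H2-Q7.

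The 10 genes took 2.03% to 2.66% of a library's total, which was between 19867201 and 26895876 estimated counts. All 15 gamma delta IEL markers were present, at a summed 47428 to 81939 CPM (counts relative to the library total, scaled between libraries by the trimmed mean of M values, TMM), against 141 to 282 for 10 absorptive enterocyte markers and 1514 to 2730 for 7 alpha beta T cell markers. Most of the first sum was Gzma and Gzmb, with IgG-PBS means of 24142.5 and 10658 CPM. Among TCR constant regions, IgG-PBS means were 181 CPM for Trdc, 1411 for Trgc1, 928 for Trgc2 and 559 for Trgc4. Those of the alpha beta TCR were 201 CPM for Trac, 692 for Trbc1 and 717 for Trbc2. The sums therefore do not measure the purity of the sorted cells. UC7-IFNa library 2 stood apart, with a first principal component score of 108 against -26.5 to 11.1 in the other 12 libraries and with 1.14% of counts on Rn18s against 0.0866% to 0.333%. Y-linked transcripts were near 0 in the IgG-PBS libraries (0.206 to 0.310 CPM) and in IgG-IFNa libraries 1 and 2 (2.15 and 1.67 CPM), and stood at 132 to 329 CPM in the other 8. The mitochondrial share of counts was 0.866% to 1.73% in IgG-PBS, 0.582% to 0.801% in IgG-IFNa, 1.07% to 1.47% in UC7-PBS and 0.611% to 1.23% in UC7-IFNa. The 10 secretory epithelium markers summed to 77.6 to 521 CPM in IgG-PBS, 531 to 1137 in IgG-IFNa, 805 to 1878 in UC7-PBS and 320 to 1177 in UC7-IFNa. These values move with groups, and their part in the results was not tested except where a value without those libraries is given. In bulk RNA, fewer cells of a type and less RNA per cell cannot be told apart.

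Per kilobase of merged exon, the class I genes of control cells spanned a wide range of levels. In the IgG-PBS libraries H2-D1 had the highest level, 4732 ± 631 CPM per kilobase (SD, n = 3), followed by B2m at 3332 ± 178 and H2-K1 at 2462 ± 119, and the ranges of these 3 genes did not overlap. The Qa-2 chain H2-Q7 came next at 1307 ± 50.8 CPM per kilobase. H2-Q6, the other Qa-2 gene, at 642 ± 86.4, and H2-T23, at 607 ± 47.8, overlapped. H2-T22 at 128 ± 9.98 and H2-M3 at 103 ± 15.4 also overlapped slightly, while H2-Q4 stood at 13.5 ± 1.45 and H2-T24 at 3.30 ± 1.78. The 7 nonclassical chains together made up 25.0% ± 0.939 of the summed heavy chain CPM, and H2-D1 alone 53.1% ± 2.07.

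Short reads cannot always separate these chains. Of all 75-base stretches of the longest coding transcript, 26.1% were shared with another gene for H2-T22 (20.1% with H2-T10), 21.7% for H2-Q7 and 17.9% for H2-Q6 (most often with each other), and 13.1% for H2-T23. For B2m and H2-M3 none were shared, for H2-T24 0.5%, for H2-K1 1.6%, for H2-D1 6.9% and for H2-Q4 7.9%. The deposited counts were not whole in 13 of 13 libraries for H2-T22, H2-T23, H2-Q4 and H2-Q7, in 11 for H2-Q6 and in 1 for H2-K1, and the sources used here do not say how shared reads were counted. The partner that H2-T23 shared most with, Gm7030 (6.2% of stretches), had at most 13.0 estimated counts in any library, against 19414 to 40085 for H2-T23. That count itself depends on how shared reads were counted, and the other genes sharing stretches with H2-T23 are not listed here.

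The 2 by 2 design asks how the cells respond to IFNa and whether that response differs when the TCR is bound by UC7-13D5. After IFNa, H2-T23 and H2-T24 were the class I chains that rose, while the classical chains H2-K1 and H2-D1, B2m and the other 5 nonclassical chains did not pass the test. H2-T23 rose 1.56-fold after IgG and 1.73-fold after UC7-13D5. H2-T24, a chain of low level, rose 3.88-fold after UC7-13D5, and its 2.19-fold difference after IgG did not pass. No class I gene passed in any comparison of UC7-13D5 with IgG.

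H2-T23 stood at 865, 843 and 974 CPM in the IgG-PBS libraries and at 1376, 1299, 1582 and 1307 CPM in the IgG-IFNa libraries. After UC7-13D5 its values were 838, 965 and 972 CPM with PBS and 1558, 1749 and 1494 CPM with IFNa. Every IFNa library lay above every PBS library, in both arms and across them. The log2 fold change was 0.64 (SE 0.13) after IgG, with an adjusted p of 0.0360 by edgeR's quasi-likelihood test with Benjamini-Hochberg adjustment over all genes. After UC7-13D5 it was 0.79 (SE 0.14, adjusted p 0.0185, edgeR), and averaged over both arms 0.71 (SE 0.096, adjusted p 0.000892, edgeR). The averaged rise passed without any 1 of the 13 libraries (adjusted p 0.000158 to 0.00530, edgeR) and in 9 of 9 other alternatives.

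The calls of H2-T23 within an arm were less firm than its averaged call. After IgG it passed in 4 of 13 fits without 1 library, at log2 fold changes of 0.57 to 0.71 and adjusted p (edgeR) of 0.00485 to 0.169, and after UC7-13D5 in 9 of 13, at 0.71 to 0.84 and adjusted p (edgeR) of 0.0101 to 0.163. With the 2 IgG-IFNa libraries that held Y-linked transcripts left out, so that both IgG groups lacked them, the difference was 0.58 and did not pass (adjusted p 0.355, edgeR). In the UC7 arm all 6 libraries held Y-linked transcripts, and the ranges of the summed secretory epithelium markers with PBS and with IFNa overlapped. The mitochondrial share there was 1.07% to 1.47% with PBS, and 0.611%, 1.23% and 0.618% with IFNa. The part of these measures in the rise of H2-T23 was not tested.

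H2-T24 stood at 10.12, 2.81 and 8.68 CPM in IgG-PBS and at 15.5, 21.2, 11.9 and 14.5 CPM in IgG-IFNa. The UC7 libraries gave 3.93, 4.94 and 7.46 CPM with PBS and 27.8, 14.0 and 21.6 CPM with IFNa. The lowest library, IgG-PBS 2, held 70 counts of this gene and the highest, UC7-IFNa 1, held 705, and again every IFNa library lay above every PBS library. The log2 fold change after IgG was 1.13 (SE 0.37, adjusted p 0.225, edgeR), after UC7-13D5 1.96 (SE 0.40, adjusted p 0.0499, edgeR) and averaged 1.54 (SE 0.27, adjusted p 0.00662, edgeR). The call after UC7-13D5 sat at the threshold: it held in 2 of 13 fits without 1 library and in 3 of 10 other alternatives. The averaged call held in 13 of 13 and in 9 of 9.

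**Figure D2:**
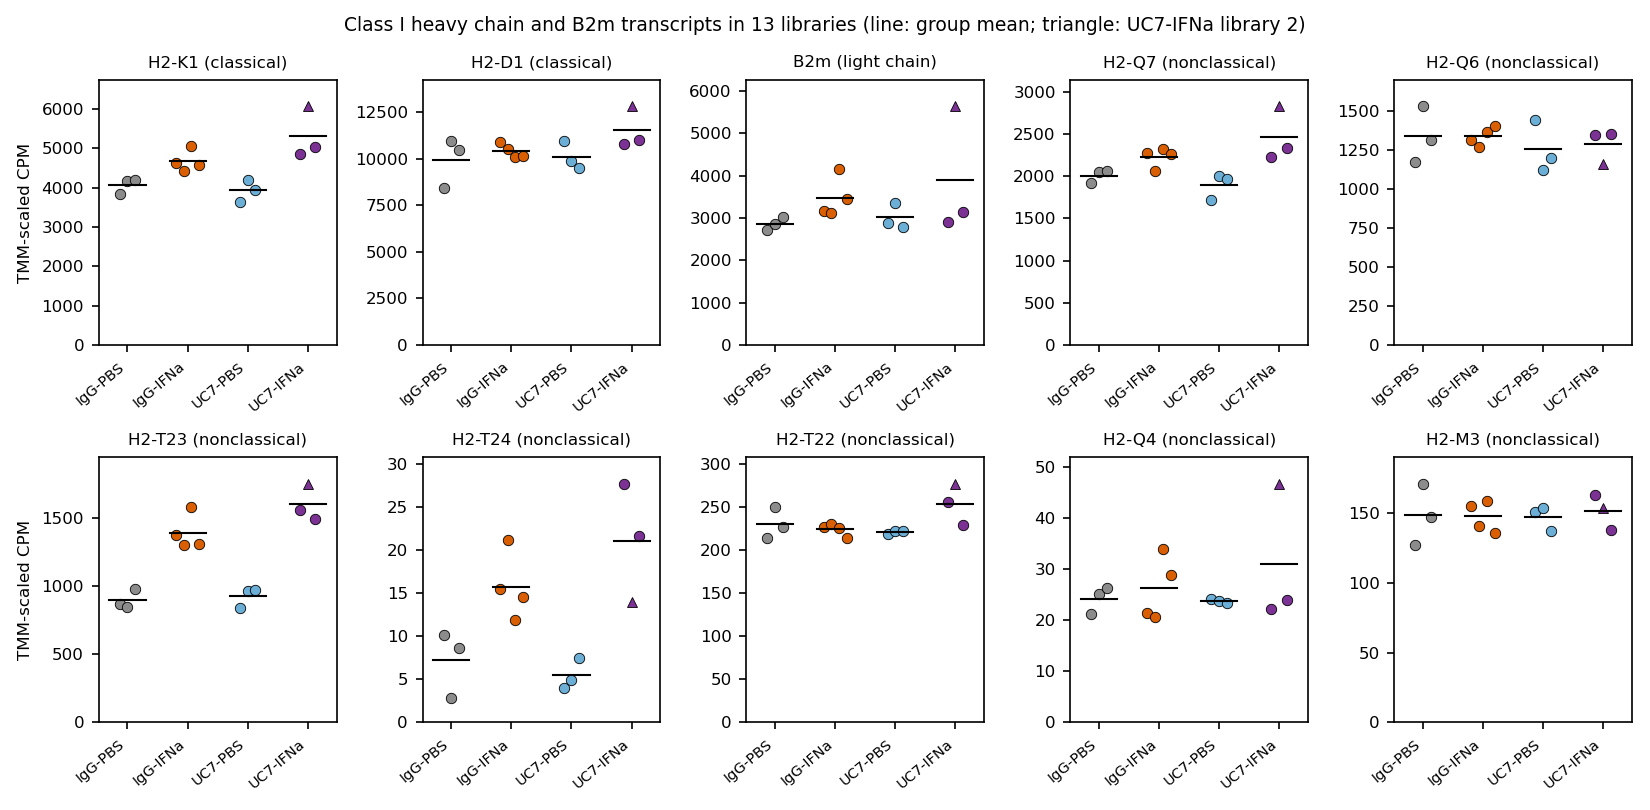
TMM-scaled CPM of each class I gene in 13 libraries (y axis from 0, points are libraries, horizontal lines group means, the triangle UC7-IFNa library 2). H2-T23 and H2-T24 are higher in all 7 IFNa libraries than in all 6 PBS libraries, while H2-D1, H2-Q6 and H2-M3 overlap between groups.

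H2-K1, a classical chain that presents peptides to CD8 T cells, stood at 3847, 4180 and 4196 CPM in IgG-PBS and at 4616, 4428, 5063 and 4567 CPM in IgG-IFNa. In the UC7 arm it stood at 3646, 4193 and 3950 CPM with PBS and at 4856, 6062 and 5029 CPM with IFNa. All 7 IFNa libraries lay above all 6 PBS libraries, by a small margin. The difference was 0.20 on the log2 scale after IgG (SE 0.13, adjusted p 0.640, edgeR) and 0.44 after UC7-13D5 (SE 0.14, adjusted p 0.393, edgeR). Averaged over the arms it was 0.32 (95% interval 0.12 to 0.51, adjusted p 0.103, edgeR), and DESeq2 called it, with an adjusted p of 0.0112, against 0.0585 to 0.311 in its other alternatives.

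H2-D1, the other classical chain and the one with the highest level, stood at 8438, 10927 and 10478 CPM in IgG-PBS and at 10873, 10504, 10096 and 10167 CPM in IgG-IFNa. After UC7-13D5 it had 10939, 9898 and 9474 CPM with PBS and 10799, 12799 and 10981 CPM with IFNa. The groups overlapped in both arms. The averaged difference was 0.13 on the log2 scale, with a 95% interval of -0.077 to 0.33 (adjusted p 0.609, edgeR), an interval that leaves out a change of the size seen for H2-T23.

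B2m, the light chain shared by all these molecules, stood at 2714, 2863 and 3020 CPM in IgG-PBS and at 3178, 3131, 4160 and 3440 CPM in IgG-IFNa. In the UC7 arm it stood at 2894, 3366 and 2786 CPM with PBS and at 2916, 5637 and 3139 CPM with IFNa. The IgG groups did not overlap, whereas in the UC7 arm only UC7-IFNa library 2 exceeded all 3 PBS libraries. The log2 difference was 0.28 (SE 0.20, adjusted p 0.692, edgeR) after IgG and 0.37 (SE 0.21, adjusted p 0.724, edgeR) after UC7-13D5. Without UC7-IFNa library 2 the latter became -0.0013 (SE 0.14, adjusted p 0.998, edgeR).

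Among the remaining nonclassical chains, the Qa-2 gene H2-Q7 ran closest to H2-K1. It ranged from 1722 to 2055 CPM over the 6 PBS libraries and from 2063 to 2825 CPM over the 7 IFNa libraries, so the groups did not overlap, by a margin of a few CPM. Its averaged log2 difference was 0.26 (SE 0.094, adjusted p 0.183, edgeR). H2-Q6, the other Qa-2 gene, ranged from 1120 to 1529 CPM with PBS and from 1159 to 1405 CPM with IFNa, and its averaged difference was 0.018 (SE 0.10, adjusted p 0.964, edgeR). Summing the counts of both Qa-2 genes, which share reads, gave 0.17 (SE 0.086).

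H2-T22, a ligand of some gamma delta TCRs, stood at 214 to 250 CPM in IgG-PBS, 214 to 230 in IgG-IFNa, 219 to 222 in UC7-PBS and 229 to 277 in UC7-IFNa. Its groups overlapped after IgG but not after UC7-13D5, with an averaged difference of 0.080 on the log2 scale (SE 0.088, adjusted p 0.754, edgeR). H2-M3 ranged from 127 to 171 CPM with PBS and from 136 to 163 CPM with IFNa, and differed by 0.017 on average (95% interval -0.19 to 0.23). H2-Q4 stood at 21.3 to 26.3 CPM over the PBS libraries and at 20.7 to 33.9 CPM over the IgG-IFNa libraries, and at 22.1, 46.7 and 23.9 CPM in UC7-IFNa. Its difference after UC7-13D5 was 0.38 (SE 0.26, adjusted p 0.774, edgeR) and -0.051 without UC7-IFNa library 2.

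**Figure D3:**
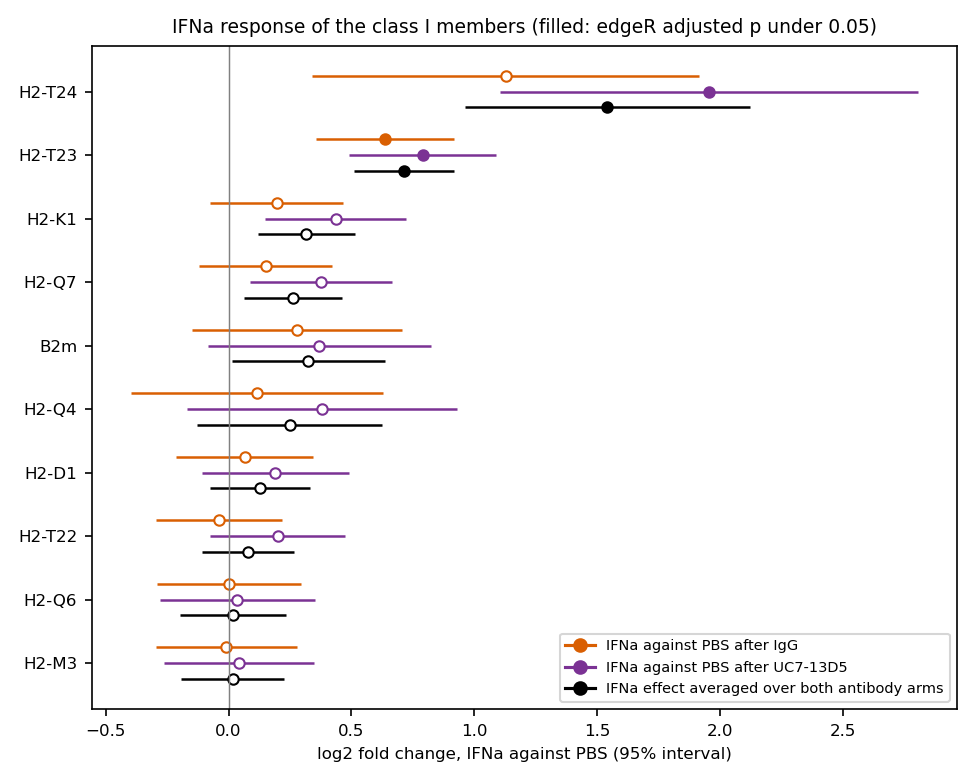
Log2 fold change of IFNa against PBS (x axis) for each class I gene after IgG, after UC7-13D5 and averaged over both antibody arms (points, edgeR estimates; lines, 95% intervals; filled points, adjusted p under 0.05). H2-T23 is filled in all 3 comparisons, H2-T24 after UC7-13D5 and averaged, and the intervals of H2-Q6 and H2-M3 are centred near 0.

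Counted over the 10 genes, 1 was called higher after IgG, where 0.619% of all 15835 tested genes were called higher. After UC7-13D5 it was 2 of 10 (0.335% of all genes), and averaged over both arms 2 of 10 (1.57% of all genes). None was called lower, as were 0.208%, 0.0253% and 0.423% of all genes. At an unadjusted p under 0.05 it was 2, 4 and 5 of 10, against 10.9%, 7.59% and 14.8% of all genes. The median log2 difference of the 10 genes was 0.13 after IgG, 0.37 after UC7-13D5 and 0.26 averaged, against -0.012, 0.022 and 0.0053 over all tested genes. The median after UC7-13D5 leaned on UC7-IFNa library 2 and was 0.11 without it, while the calls, H2-T23 and H2-T24, were the same 2 genes. The IFNa libraries lay wholly above the PBS libraries for 5 of 10 genes after IgG (H2-K1, B2m, H2-Q7, H2-T23 and H2-T24) and for 5 of 10 after UC7-13D5 (H2-T22 in place of B2m), against 7.1% and 5.9% of all genes. All 7 IFNa libraries lay above all 6 PBS libraries for H2-K1, H2-Q7, H2-T23 and H2-T24, 4 of 10 genes, against 1.23% of all genes.

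**Figure D4:**
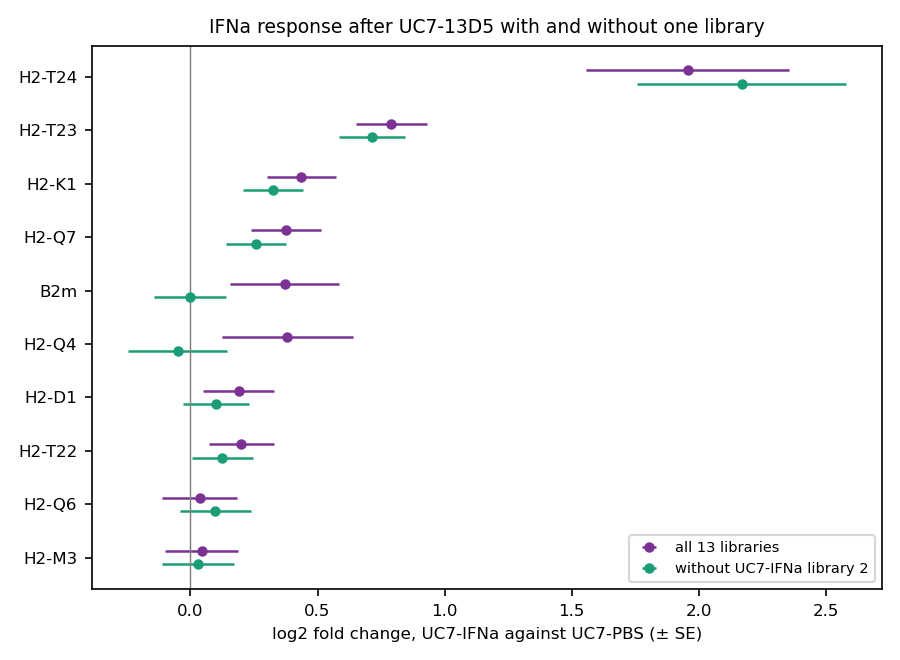
Log2 fold change of IFNa against PBS in the UC7 arm (x axis, point ± SE) with all 13 libraries and without UC7-IFNa library 2. B2m moves from 0.37 to -0.0013 and H2-Q4 from 0.38 to -0.051, while H2-T23 moves from 0.79 to 0.71.

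Setting chains against each other within a library removes the scaling between libraries. The log2 ratio of H2-T23 to the summed classical chains was -3.97 ± 0.17 in IgG-PBS (SD, n = 3) and -3.44 ± 0.12 in IgG-IFNa (n = 4). In the UC7 arm it was -3.93 ± 0.17 with PBS and -3.39 ± 0.057 with IFNa (n = 3 each). All 7 IFNa libraries, at -3.52 to -3.26, lay above all 6 PBS libraries, at -4.16 to -3.79. As a share of summed heavy chain CPM, H2-T23 went from 4.81% ± 0.524 to 6.80% ± 0.526 after IgG and from 5.01% ± 0.526 to 7.07% ± 0.225 after UC7-13D5. Per kilobase, H2-T23 overlapped H2-Q6 in both PBS groups, whereas in IFNa libraries its lowest values, 883 (IgG) and 1015 (UC7) CPM per kilobase, lay above the highest of H2-Q6, 674 and 648.

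The nonclassical chains as a class barely shifted against the classical ones. The log2 ratio of their sums was -1.59 ± 0.072 in IgG-PBS, -1.49 ± 0.069 in IgG-IFNa, -1.65 ± 0.080 in UC7-PBS and -1.53 ± 0.060 in UC7-IFNa. The IFNa differences of 0.098 after IgG and 0.12 after UC7-13D5 were of the size of the spread between libraries, and the groups overlapped in both arms. In the UC7 arm the overlap came from UC7-IFNa library 2, at -1.60; the other UC7-IFNa libraries, at -1.48 and -1.52, lay above all UC7-PBS libraries, at -1.73 to -1.57, and the difference without library 2 was 0.15. Taking the median chain of each class in place of the sums gave 0.00051 and -0.0035, so the shift in the sums was not shared by the median chain. The ratio of H2-K1 to H2-D1 overlapped between PBS and IFNa after IgG, at -1.28 ± 0.13 and -1.16 ± 0.12, but not after UC7-13D5, at -1.36 ± 0.19 and -1.12 ± 0.038.

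**Figure D5:**
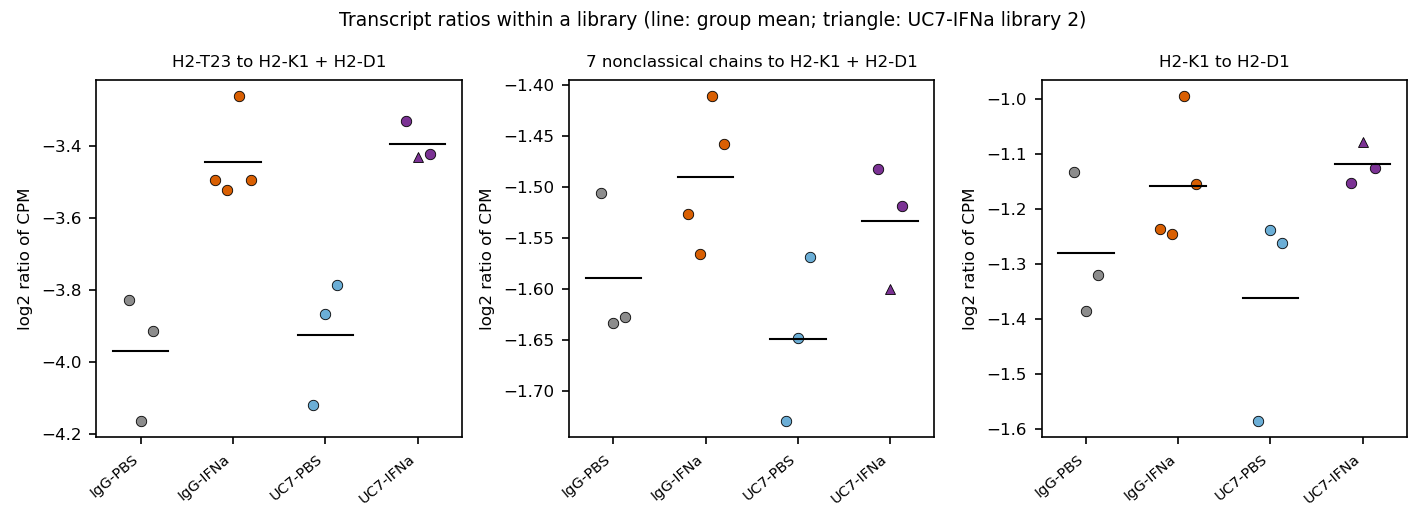
Log2 ratios of CPM within each library (y axes do not start at 0; points, libraries; lines, group means; triangle, UC7-IFNa library 2). H2-T23 against H2-K1 plus H2-D1 separates the IFNa from the PBS libraries, whereas the 7 nonclassical chains summed against the same 2 chains overlap between groups.

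UC7-13D5 itself left the class I genes without a call. With PBS, 0 of 10 class I genes passed, where 0.00632% of all genes did, and with IFNa 0 of 10, where 0.0758% did, by edgeR. Averaged over PBS and IFNa it was 0 of 10, where 0.657% of all genes passed; by DESeq2 it was also 0 of 10 in these 3 comparisons, and at an unadjusted p under 0.05 again 0 of 10, against 5%, 7.19% and 8.06% of all genes. The largest of these differences was that of H2-T24 with IFNa, 0.43 on the log2 scale (95% interval -0.33 to 1.18), and for H2-T23 it was 0.20 (95% interval -0.074 to 0.48). With PBS the differences were 0.050 for H2-T23, -0.052 for H2-K1, 0.023 for H2-D1 and 0.073 for B2m. Because the IgG-PBS libraries lacked Y-linked transcripts and all UC7 libraries held them, antibody and this difference cannot be told apart in the PBS comparison.

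Whether the response of the class I genes to IFNa differs between the antibody arms was tested as an interaction. No class I gene passed the interaction test, in which 0% of all genes passed by edgeR, 502 of 15835 (3.17%) had an unadjusted p under 0.05, none of them among the 10, and DESeq2 called 5. All 10 estimates were above 0, a direction that fell away for B2m and H2-Q4 without UC7-IFNa library 2. With another single library left out, H2-Q6 went as low as -0.071 and H2-M3 as low as -0.061. The difference of responses was 0.83 for H2-T24 (95% interval -0.30 to 1.96), 0.15 for H2-T23 (-0.25 to 0.56) and 0.24 for H2-K1 (-0.15 to 0.63), so the intervals allow sizeable differences.

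The 10 genes did not move as 1 block over the libraries. Over 13 libraries, which share the treatment groups, the closest pair in log2 CPM was H2-K1 and H2-Q7 (Pearson's r 0.98), followed by H2-K1 and H2-T23 (0.92) and B2m and H2-Q4 (0.91). Without UC7-IFNa library 2 the first pairs were at 0.96 and 0.93, and B2m with H2-Q4 fell to 0.73. Among 9282 genes whose mean log2 CPM reached 3, those most like H2-T23 were Bst2 (0.98), Xaf1 (0.96), Zbp1 (0.95), Rtp4 (0.95) and Gm12253 (0.95). Those most like H2-K1 were Psme1 (0.96), Ninj1 (0.95), Ifi35 (0.94), Abt1 (0.94) and Napa (0.93).

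Among 20 listed factors that act on class I promoters, 2 were called higher after IgG, 2 after UC7-13D5 and 3 in the average. Of all genes, 0.619%, 0.335% and 1.57% were called higher. None of the 20 was called lower, as were 0.208%, 0.0253% and 0.423% of all genes. At an unadjusted p under 0.05 (edgeR) there were 4, 4 and 6 of 20, against 10.9%, 7.59% and 14.8% of all genes. Irf9, the DNA-binding subunit of the interferon-stimulated complex ISGF3, had 75.4 ± 8.32 CPM (SD) in the 3 IgG-PBS libraries and 161 ± 17.4 in the 4 IgG-IFNa libraries, and 62.5 ± 9.21 in UC7-PBS and 189 ± 2.93 in UC7-IFNa (n = 3 each). It rose by 1.10 on the log2 scale after IgG (SE 0.14, adjusted p 0.00172, edgeR) and by 1.60 after UC7-13D5 (SE 0.15, adjusted p 3.84e-05, edgeR). Nlrc5, the class I transactivator, was called with all 13 libraries only in the average, at 0.60 (SE 0.14, adjusted p 0.0408, edgeR). It stood at 150 ± 19.1 CPM in IgG-PBS, 208 ± 13.2 in IgG-IFNa, 133 ± 21.5 in UC7-PBS and 220 ± 69.2 in UC7-IFNa. Without UC7-IFNa library 2, Nlrc5 was also called higher in the UC7 arm. There 4 of the 20 factors were called higher, against 0.586% of all genes. The median of the 20 factors was 0.028 in the averaged comparison.

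Of 16 genes of peptide generation and loading, none passed within an arm (at an unadjusted p under 0.05 there were 1 after IgG, against 10.9% of all genes, and 7 after UC7-13D5, against 7.59%). Psme1, a subunit of the proteasome activator PA28, rose in the average by 0.62 (SE 0.14, adjusted p 0.0371, edgeR). It was 1 of 16 called there, against 1.57% of all genes called higher. Without UC7-IFNa library 2, Psme2, the peptide transporter subunit Tap1 and Tapbpl, a peptide-loading chaperone related to tapasin, passed in the average as well. That made 4 of 16, against 3.57% of all genes called higher in that fit. Of 31 other class I and class I-like genes listed, 17 were in the table, 14 were tested and none passed; 2 had an unadjusted p under 0.05 in the average, against 14.8% of all genes. H2-T10, a near relative of H2-T22, stood at 49.0 ± 7.57 CPM in IgG-PBS, 57.5 ± 7.49 in IgG-IFNa, 44.2 ± 1.88 in UC7-PBS and 47.6 ± 4.33 in UC7-IFNa. H2-Q10, a secreted class I chain, had 23.4 ± 4.78 CPM in IgG-PBS and 14.9 ± 2.22 in IgG-IFNa, which did not pass (adjusted p 0.202, edgeR), and 16.3 ± 4.31 in UC7-PBS and 14.6 ± 2.18 in UC7-IFNa. Both were picked out after their values were seen.

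Among 18 tested receptors for class I molecules, Klrc1 and Klrc2 were called lower with IFNa than with PBS, in the UC7 arm and averaged. Of all genes, 0.0253% and 0.423% were called lower there, and none of the 18 was called higher. At an unadjusted p under 0.05 (edgeR) there were 4 and 6 of 18, against 7.59% and 14.8% of all genes. Klrc1 and Klrc2 encode NKG2 chains, which pair with CD94 to bind the Qa-1 molecule encoded by H2-T23: Klrc1 encodes the inhibitory NKG2A, and Klrc2 the activating NKG2C. Klrc1 stood at 16.0 ± 4.99 CPM in IgG-PBS, 10.57 ± 3.42 in IgG-IFNa, 51.7 ± 24.6 in UC7-PBS and 14.3 ± 2.89 in UC7-IFNa. In the UC7 arm Klrc1 was lower with IFNa by 1.85 on the log2 scale (SE 0.37, adjusted p 0.0474, edgeR), a call lost without UC7-IFNa library 2. Klrc2 stood at 1.69 ± 0.373 CPM in IgG-PBS, 0.775 ± 0.385 in IgG-IFNa, 4.86 ± 0.413 in UC7-PBS and 0.919 ± 0.354 in UC7-IFNa. With IFNa it was lower by 2.41 in the UC7 arm (SE 0.42, adjusted p 0.0149, edgeR) and kept its call. UC7-PBS had the highest mean of both genes, though no receptor passed for UC7-13D5 against IgG with PBS. Klrc1 and Klrc2 are close paralogs, and reads shared between them were not examined here. Klrd1, which encodes CD94, had no call in either arm, at 0.13 (SE 0.19) after IgG and -0.37 (SE 0.21) after UC7-13D5. Without UC7-IFNa library 2, Cd8a was called higher in the average, 1 of 18 receptors, against 3.57% of all genes.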

How the data were processed

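Per the labels' protocols, RNA of the sorted cells was extracted with RNeasy columns and made into libraries with SMART-Seq HT. STAR 2.7.8a, Partek, DESeq2 and mm39 are named, without roles, in the submitters' processing notes. The deposited table used here held expected counts per gene as made by the authors, not scaled between libraries, of which 37.3% were not whole. A second table the authors deposited, of 11281 genes, held a signal, normalized counts that differ from the first by 1 factor per library, and served only for an alternative. Groups came from the sample titles.

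Counts were rounded. Genes were kept by filterByExpr (minimum count 10), library sizes scaled by TMM, and 1 quasi-likelihood model (robust, 4 group coefficients) was fitted to 13 libraries in edgeR 4.0.16 under R 4.3.3, with 7 two-sided contrasts, a threshold of 0.05 and Benjamini-Hochberg adjustment over 15835 genes. Dividing the log2 fold change by the square root of F gave its SE (standard error). TMM-scaled CPM are used as levels. The script was tested on simulated data. Merged exon lengths and shared 75-base stretches came from GENCODE M21, promoters from RefSeq GRCm38.p6. Named genes were all 10 class I genes, up to 4 called genes per pathway list and comparison by smallest p, and the 5 genes most correlated with H2-K1 and with H2-T23. A gene of the list of transcription factors is not reported here. The genes, lists and tests were chosen with earlier results of these data known. Alternatives were other scaling, filtering, dispersion, tools (DESeq2 1.42.0; limma 3.58.1 on log2 of the signal plus 1), the replicate number as a block, the share of Y-linked transcripts as a covariate, and leaving libraries out.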

Additional observations from a re-analysis of the deposited data

Results flagged for a closer look

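In the 4 IgG-IFNa libraries, the log2 ratio of H2-T23 to the summed classical chains in library 3 was -3.26, far from the other 3, at -3.52 to -3.49: the gap was 0.885 of the whole range of the group, above Dixon's 95% critical value of 0.829. It was the only value apart among 14 measures examined in that group, where chance gives about 1 in 20. Library 3 also held both Xist (68.3 CPM) and Y-linked transcripts (210 CPM). So did library 4 (23.4 and 320 CPM), whose ratio of -3.49 was not apart. Whether this mixture bears on the ratio was not tested. Without library 3, H2-T23 differed by 0.57 after IgG, with an adjusted p of 0.117 by edgeR, against 0.64 and 0.0360 with it.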

How the results depend on the processing

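No called value changed sign under any alternative. Uncalled differences did, and not only those near 0. Without UC7-IFNa library 2, H2-Q4 after UC7-13D5 went from 0.38 to -0.051. With the share of Y-linked transcripts as a covariate as well, B2m for UC7-13D5 against IgG with IFNa went from 0.16 to -0.36. The averaged calls of H2-T23 and H2-T24 held in all 13 fits without 1 library and in all 9 other alternatives. Calls within an arm were lost under several alternatives: H2-T23 after IgG passed in 7 of 10 other alternatives (adjusted p 5.66e-05 to 0.355), H2-T23 after UC7-13D5 in 8 of 10 (1.73e-06 to 0.379) and H2-T24 after UC7-13D5 in 3 of 10 (0.000203 to 0.170); the cause was not tested. H2-T24 had as few as 70 counts in a library, and its SE was the widest of the 10 genes in each IFNa comparison.

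After IgG (131 genes) the count was 24 with the share of Y-linked transcripts as a covariate, 21 without the IgG-IFNa libraries that hold them, 343 with only the groups compared, 406 by DESeq2 and 24 to 430 without 1 library. For IFNa after UC7-13D5 (57) it was 136 with that covariate and without UC7-IFNa library 2, 22 with only the groups compared, 141 by DESeq2 and 29 to 110 without 1 library. Averaged over the arms (315) it was 621 with the covariate and without UC7-IFNa library 2, 131 without the IgG-IFNa libraries that hold Y-linked transcripts, 777 by DESeq2 and 172 to 933 without 1 library, the highest without UC7-IFNa library 2.

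For UC7-13D5 with PBS (1) the count was 0 without a filter, 5 without the IgG-IFNa libraries that hold Y-linked transcripts, 19 with only the groups compared, 69 by DESeq2 and 0 to 4 without 1 library. With IFNa (12) it was 23 with the covariate, 27 also without UC7-IFNa library 2, 6 without the IgG-IFNa libraries that hold Y-linked transcripts, 0 with only the groups compared, 120 by DESeq2, 2 by limma and 0 to 52 without 1 library. Averaged (104) it was 3, 12, 19 and 296 under the covariate, the covariate without UC7-IFNa library 2, the omission of those IgG-IFNa libraries and DESeq2, and 27 to 136 without 1 library. The interaction (0) had 5 genes by DESeq2 and 0 to 1 without 1 library. The ratio of nonclassical to classical chains, 0.098 after IgG and 0.12 after UC7-13D5, became 0.00051 and -0.0035 with the median over chains, and 0.072 to 0.14 and 0.075 to 0.16 without 1 library.

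Deviations of same-numbered libraries correlated at -0.21 to 0.13 over 18 pairs, with 2 pairs over 0.1. Those of libraries with other numbers correlated at -0.21 to 0.24 over 45 pairs, with 12 over 0.1. Replicate numbers thus showed no sign of pairing the libraries. With the replicate number as a block, the count after IgG was 27, after UC7-13D5 34, averaged 146, for UC7-13D5 with IFNa 1 and averaged over PBS and IFNa 6. The blocked fit gave H2-T23 0.67 after IgG (adjusted p 0.172) and 0.79 after UC7-13D5 (adjusted p 0.0816), and H2-T24 1.92 after UC7-13D5 (adjusted p 0.170), while the averaged calls of both genes held.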
